A study of Mus musculus with 5 samples.

Results

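The 9 genes described here encode 4 of the DNA-binding subunits of the transcription factor NF-kB (Nfkb1, Nfkb2, Rel and Relb), 4 proteins that restrain or redirect it (Nfkbia, Nfkbiz, Bcl3 and Tnfaip3) and the cytokine Tnf. They were taken by name from the 26189 genes counted in single cells of the mouse aortic arch. The cells came from female C57BL/6J mice and from Saa3-/- mice, carrying the allele C57BL/6N-Saa3tm1.1(KOMP)Vlcg/MbpMmucd. The design text calls the animals littermates although the genotype labels name 2 substrains. All mice, of both genotypes, were 12 weeks old when they received AAVmPCSK9, a virus carrying mPCSK9D377Y under the hAAT promoter, which is active in liver, and all were then fed a Western diet for 18 weeks. This treatment raises blood cholesterol and gives atherosclerosis. Live CD45+ cells were sorted from digested arches, marked with 1 sample tag per genotype and captured together on a BD Rhapsody system. The number of mice behind each tag is not given in the labels, and cultured macrophages of the same series were not analysed here.

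Each genotype is thus 1 pool, and no test between genotypes was possible. Intervals below are exact 95% intervals and cover counting error only, not differences between mice. After cells with over 25% mitochondrial molecules were left out, 833 cells and 7289593 molecules stood in the pool labelled wild-type and 823 cells and 5231922 molecules in the pool labelled Saa3-/-. No cell barcode was in both tables. Summed over all kept cells, Saa3 itself went against the labels. It stood at 148 CPM (counted molecules per 1000000 in those cells) in the pool labelled wild-type and at 242 CPM in the pool labelled Saa3-/-, where 1124 of its 1268 molecules came from 2 cells. In the pool labelled wild-type the 2 highest cells held 382 of 1079 molecules. Outside the 2 highest cells of each pool, its level was higher in the pool labelled wild-type. Since the summed level did not follow the labels, the pools are named by their labels throughout.

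In resting cells NF-kB dimers are held in the cytoplasm by inhibitors such as the product of Nfkbia. Signals from receptors for TNF, interleukin-1 and microbial products activate the IkB kinases, which mark that inhibitor for degradation, and the freed dimers enter the nucleus. Among their targets are Nfkbia and Tnfaip3 themselves, so that both genes close feedback loops, and the pathway is known in atherosclerosis for driving inflammatory genes in macrophages and vessel wall cells.

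The stretches of 250 bases before the start site (RefSeq, GRCm38.p6) are shown for 2 feedback genes and 1 subunit gene because each holds matches to the kappa B consensus, the motif that NF-kB dimers bind. Matches on either strand are in capitals, and overlapping matches run together. The promoter table had entries for 6 of the 9 genes, and 5 of these (Nfkb2, Rel, Nfkbia, Tnfaip3 and Bcl3) had a match within the window from 250 bases before to 50 bases after a start. Tnf had none, and the match of Bcl3 lay after its start. Of all 32851 windows of that length, 4.51% held a match. That is a share of single windows, whereas a gene was counted if any of its listed starts had a match (Nfkb2 had 3 starts and Tnfaip3 had 2).
Nfkbia, chr12:55492648-55492897, minus strand: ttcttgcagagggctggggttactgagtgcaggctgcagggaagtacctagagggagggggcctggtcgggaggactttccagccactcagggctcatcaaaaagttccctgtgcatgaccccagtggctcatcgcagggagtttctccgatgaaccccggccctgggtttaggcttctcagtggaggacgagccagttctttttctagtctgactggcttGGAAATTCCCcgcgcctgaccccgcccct
Tnfaip3, chr10:19015411-19015660, minus strand: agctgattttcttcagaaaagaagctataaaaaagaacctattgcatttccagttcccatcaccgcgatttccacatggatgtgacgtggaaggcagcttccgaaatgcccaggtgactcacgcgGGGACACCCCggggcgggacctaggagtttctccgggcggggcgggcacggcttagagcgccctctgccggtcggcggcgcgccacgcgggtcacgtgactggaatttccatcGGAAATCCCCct
Rel, chr11:23770970-23771219, minus strand: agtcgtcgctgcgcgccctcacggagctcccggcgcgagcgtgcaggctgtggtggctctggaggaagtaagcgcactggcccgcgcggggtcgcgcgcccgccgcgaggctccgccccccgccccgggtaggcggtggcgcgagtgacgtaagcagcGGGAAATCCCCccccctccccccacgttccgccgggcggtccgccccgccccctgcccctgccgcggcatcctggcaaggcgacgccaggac
These matches describe letters only and were not measured as bound sites. The Tnfaip3 window belongs to the first of 2 listed starts, and the second had no match.

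Cells were typed by gating, each from its own molecules of 16 fixed marker sets. A gate name ending in -like means that the cell carried more of those markers than the average cell at its depth. Of 1656 cells, 100 had no type, and these were led by Gpnmb, Fabp5 and Runx2. In each of 7 gates, both pools had at least 20 cells. They were macrophage-like (193 cells in the pool labelled wild-type, 139 in the pool labelled Saa3-/-), T-like (178 and 225), smooth-muscle-like (106 and 65), fibroblast-like (77 and 62), B-like (53 and 107), monocyte-like (49 and 46) and conventional dendritic-like (45 and 42). Fibroblast-like and smooth-muscle-like cells were present although the sort was for CD45. Some monocyte-like cells, 16 of 95, were typed mainly on Fn1 and Vcan, and results in that gate are given with and without them. A further gate, the cells like type 2 innate lymphoid cells (ILC2-like), held 29 and 12 cells and was singled out after its values were seen. Type 2 innate lymphoid cells are tissue-resident lymphocytes that respond to interleukin-33. Most cells of the gate also held more than 1 T cell receptor or CD3 molecule, as described below.

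**Figure D1:**
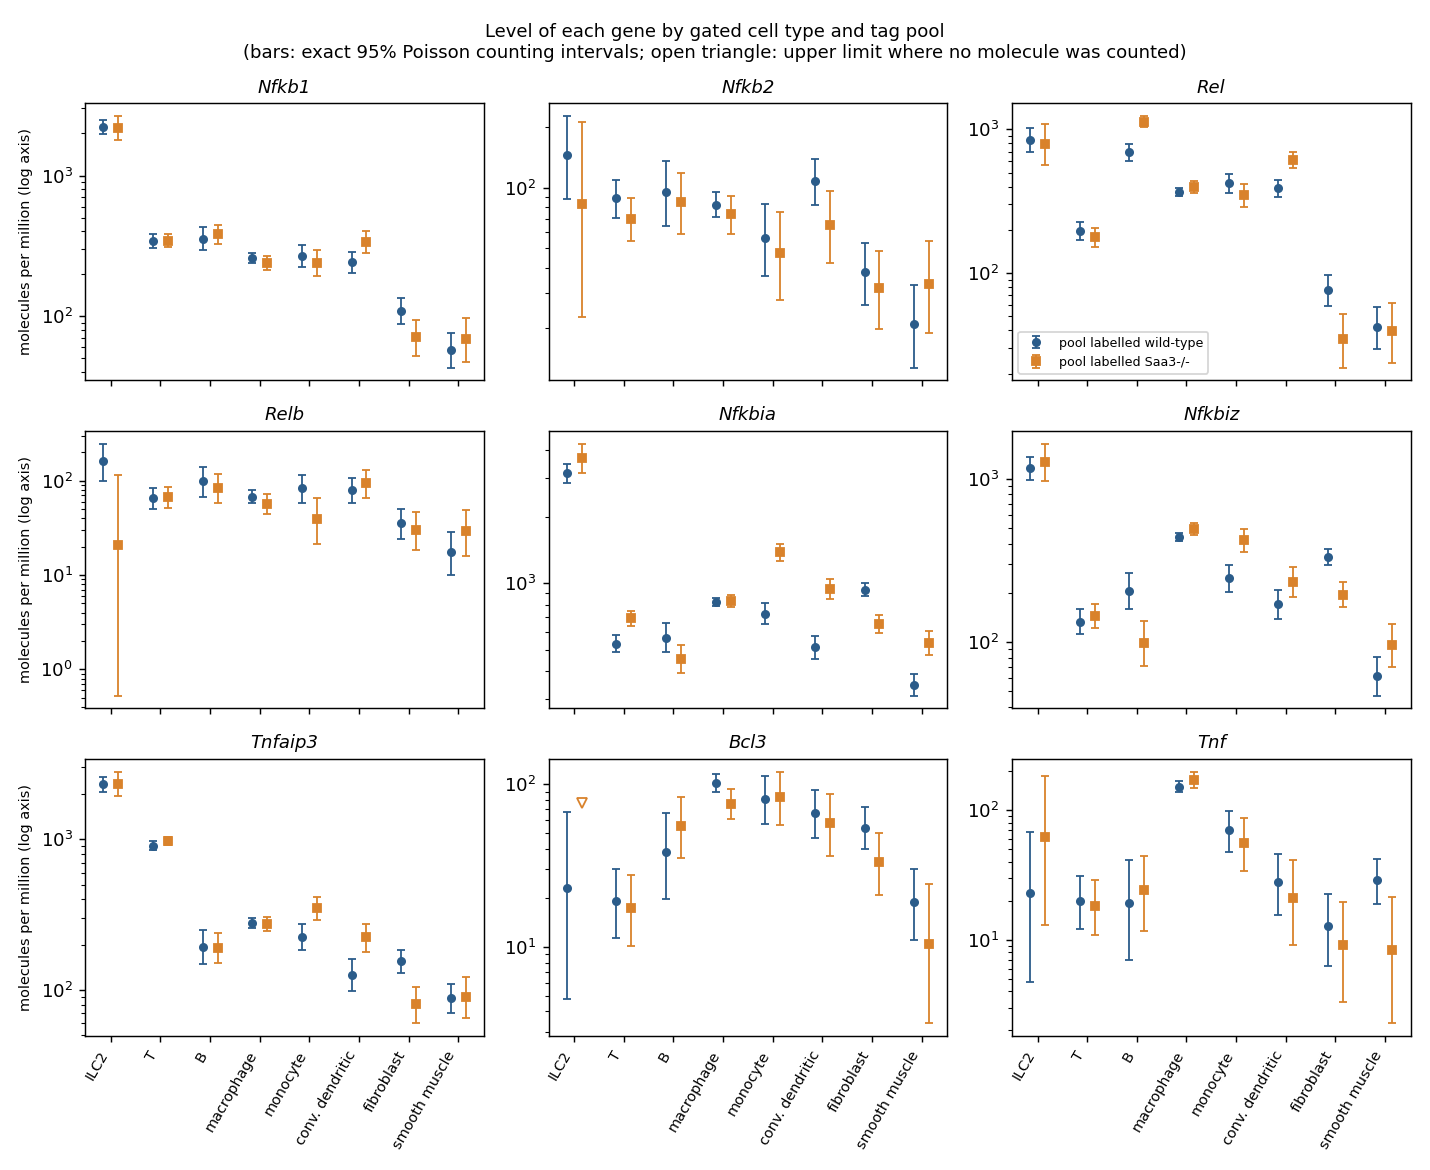
Level of each of the 9 genes (molecules per 1000000, log axis) by gated cell type (horizontal axis) in the pool labelled wild-type (blue circles) and the pool labelled Saa3-/- (orange squares), with exact 95% Poisson intervals. Of the gates shown, ILC2-like cells stand highest for Nfkb1, Nfkbia, Nfkbiz and Tnfaip3 in both pools, and macrophage-like cells for Tnf (152 and 172 CPM).

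Among the subunits, Nfkb1 encodes a precursor that is processed to a subunit without an activation domain. Its level was 2228 CPM (1979 to 2499.7) in ILC2-like cells of the pool labelled wild-type and 2189 CPM (1791 to 2650.3) in those of the pool labelled Saa3-/-. In T-like cells it stood at 343 CPM (307 to 382) and 344 CPM (308 to 382). No interval of another of these gates reached that of ILC2-like cells. Among the 7 larger gates B-like cells came first in both pools (356 and 381 CPM), and their intervals overlapped those of T-like cells. Fibroblast-like (109 and 71.1 CPM) and smooth-muscle-like cells (57.6 and 68.7 CPM) came last.

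Rel encodes c-Rel, a subunit with an activation domain that is known from lymphocytes. Among the larger gates it was highest in B-like cells of both pools, at 692 CPM (603 to 791) in the pool labelled wild-type and 1129.8 CPM (1029.7 to 1237) in the pool labelled Saa3-/-. T-like cells had 197 and 178 CPM, below the macrophage-like cells at 365 and 397 CPM. The 2 lymphocyte gates thus lay at opposite ends of the immune gates. With each cell thinned to 2000 molecules, 76.9% (63.2 to 87.5) and 77.2% (67.8 to 85.0) of B-like cells had a Rel molecule, against 26.6% and 22.9% of T-like cells. Smooth-muscle-like cells gave 6.73% and 4.84%, the lowest of these shares. Without thinning, the shares were 86.8% and 83.2% in B-like, 44.4% and 39.6% in T-like and 20.8% and 13.8% in smooth-muscle-like cells, whose median depths were 8210 and 6665 molecules against 3806 and 3285 in B-like cells.

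Nfkb2 and Relb belong to the alternative branch of the pathway, Nfkb2 as a precursor and Relb as the partner of its product. Nfkb2 reached at most 108 CPM over the 7 larger gates in the pool labelled wild-type, in conventional dendritic-like cells, and ranged from 31.7 to 84.5 CPM in the pool labelled Saa3-/-. Relb ranged from 17.7 to 98.4 CPM and from 29.2 to 94.3 CPM. For both genes the intervals of all neighbouring gates in the order overlapped, so the order of neighbours was not resolved at this depth. In ILC2-like cells Relb had 161 CPM (99.9 to 247) and 20.9 CPM (0.528 to 116), the latter from 1 molecule, and these intervals overlapped.

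Nfkbia encodes the classical inhibitor IkB-alpha. ILC2-like cells had 3142 CPM (2845 to 3462) and 3690.5 CPM (3167 to 4276). Over the larger gates the order changed between pools. Fibroblast-like cells led in the pool labelled wild-type, at 936 CPM (872 to 1002), and monocyte-like cells in the pool labelled Saa3-/-, at 1384 CPM (1265 to 1512). Macrophage-like cells had 823 and 832 CPM, T-like cells 532 and 693 CPM.

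Nfkbiz and Bcl3 encode atypical inhibitors of the nucleus, which can also act as co-activators. Macrophage-like cells led the larger gates for Nfkbiz, with 439 CPM (413 to 467) and 489 CPM (449.8 to 531), the latter overlapping monocyte-like cells (354 to 491), and T-like cells had 133 and 144 CPM. ILC2-like cells were above both, at 1160.1 CPM (982 to 1361) and 1272 CPM (973 to 1634). For Bcl3 the intervals of all neighbouring larger gates overlapped in both pools, so the order of neighbours was not resolved. Bcl3 was 102 CPM (90.0 to 116) in macrophage-like, 81.1 CPM in monocyte-like and 66.8 CPM in conventional dendritic-like cells of the pool labelled wild-type. In the pool labelled Saa3-/- these gates had 75.5, 83.7 and 57.6 CPM. T-like cells had 18 and 17 Bcl3 molecules, the latter a level of 17.3 CPM, and ILC2-like cells had 3 in the pool labelled wild-type and 0 in the other.

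Tnfaip3 encodes a ubiquitin-editing enzyme that ends signalling from TNF and Toll-like receptors. T-like cells led the larger gates by a wide margin, at 904 CPM (845 to 967) and 979 CPM (918 to 1043), and no other larger gate exceeded 349 CPM. Macrophage-like cells had 277 and 274 CPM, B-like cells 194 and 191 CPM. ILC2-like cells again stood above, with 2313 CPM (2059 to 2589) and 2335 CPM (1923 to 2809.9). At equal depth a molecule was found in 74.0% and 71.1% of T-like cells and in 8.65% and 16.1% of smooth-muscle-like cells (92.7% and 87.1%, and 31.1% and 32.3%, without thinning, at median depths of 4228 and 4050, and 8210 and 6665 molecules).

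Tnf, the ligand of the pathway's best-known receptors, was highest among these gates in macrophage-like cells, at 152 CPM (137 to 169) and 172 CPM (149 to 198). Monocyte-like cells followed with 69.8 and 55.8 CPM, and T-like cells had 20.0 and 18.3 CPM. The molecules were concentrated. Under the wild-type label 9 of 193 macrophage-like cells accounted for at least 50% of 358 Tnf molecules, and under the Saa3-/- label 13 of 139 cells for at least 50% of 203. At equal depth 16.8% (11.8 to 22.9) and 24.1% (17.2 to 32.1) of macrophage-like cells had a Tnf molecule. Smooth-muscle-like cells, taken as the level of background, gave 0.962% and 1.61%. Unthinned, 46.1% and 46.8% of macrophage-like and 7.55% and 6.15% of smooth-muscle-like cells had one, at median depths of 9921 and 6732, and 8210 and 6665 molecules. The Tnf level of smooth-muscle-like cells was 28.8 and 8.33 CPM, with 19 of 26 molecules in 1 cell under the wild-type label. Its intervals overlapped those of T-like cells in both pools, so Tnf in T-like cells was not resolved from this background.

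The ILC2-like gate was set against T-like cells, with a call where a gene was at least 2-fold higher or lower in both pools. Of 3833 genes tested, 3.52% were called higher, and so were 5 of the 7 genes of the set tested: Nfkb1, Rel, Nfkbia, Nfkbiz and Tnfaip3. Lower calls made up 6.65% of all genes and included none of the 7. The log2 ratio of Nfkb1 was 2.70 (2.47 to 2.93) in the pool labelled wild-type and 2.68 (2.34 to 2.99) in the pool labelled Saa3-/-. The pools thus gave nearly the same value. For Nfkbiz the log2 ratios were 3.12 and 3.15, for Nfkbia 2.56 and 2.42, for Tnfaip3 1.36 and 1.26, and for Rel 2.10 and 2.17. Nfkb2 (0.75 and 0.41) and Relb (1.32 and -1.11) did not pass in both pools, and Bcl3 and Tnf had too few molecules.

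Nfkb1 molecules occurred in 28 of 29 such cells under the wild-type label and in 11 of 12 under the Saa3-/- label, and at least 50% of its molecules came from 5 and 3 cells. With each cell thinned to 2000 molecules, 86.2% and 90.9% of ILC2-like cells had one, against 42.2% and 37.2% of T-like and 13.5% and 16.1% of smooth-muscle-like cells (59.6% and 54.7%, and 32.1% and 36.9%, unthinned). In the pool labelled Saa3-/-, 1 cell held 25 of 38 Rel molecules. Median depth was close to that of T-like cells (4404 and 3564 molecules against 4228 and 4050). Immediate early and dissociation genes, which respond to tissue digestion, were also higher in the gate. Summed, they came to 9872 and 12281 CPM in ILC2-like and to 3829.5 and 3858 CPM in T-like cells, and their part in the difference was not tested.

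The gate was described by its own markers and by other genes. Il1rl1, the receptor for interleukin-33, stood at 1644 and 1647 CPM, and at 14.8 and 5.08 CPM in T-like cells. It is 1 of the 6 gating markers of this gate, so its excess followed from the gating and cannot check identity. Outside those markers, Il5 had 192 and 271 CPM (1.05 and 0 CPM in T-like cells) and Rora 2428 and 2085 CPM (513 and 441 CPM). Both were named after their values were seen. The whole list of 8 T cell markers came to 1498 and 1856 CPM in the gate, below T-like cells at 6227 and 6391 CPM. It was above the other larger gates, which ranged from 200.4 to 319 CPM. All 8 were detected in the ILC2-like gate over both pools together, but Trdc had 6 molecules under the wild-type label and 0 under the other. Of the single genes, Trac stood at 215 and 125 CPM (781 and 717 CPM in T-like cells). Foxp3, the defining factor of regulatory T cells, was also named after its values were seen. It stood at 46.1 and 83.4 CPM (6 and 4 molecules), and at 9.49 and 1.02 CPM in T-like cells. The part of T cells in the levels of the gate was not tested beyond the limit given next. With ILC2-like cells limited to at most 1 T cell receptor or CD3 molecule, 6 of 29 and 3 of 12 cells were left, so most cells carried more. The log2 ratio of Nfkb1 to T-like cells was then 3.78 and 2.94. Under the same limit Rel came to 0.45 in the pool labelled Saa3-/-, and to 0.73 there with cells typed by cluster, so its call in that pool ended under both. Macrophage markers came to 1659 CPM in the gate in the pool labelled wild-type and to 542 CPM in the other, and their part was not tested.

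**Figure D2:**
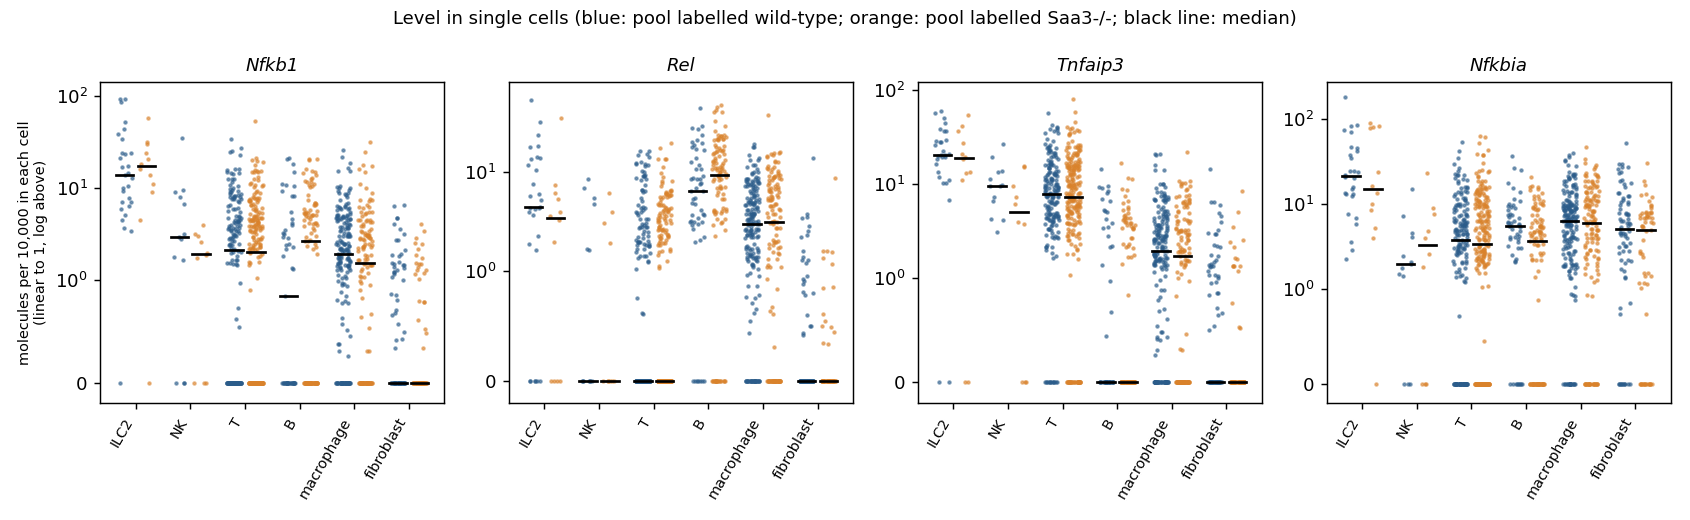
Molecules of Nfkb1, Rel, Tnfaip3 and Nfkbia per 10000 molecules in each cell (vertical axis, linear to 1 and log above) for 6 gates, with a black line at the median. Points are cells of the pool labelled wild-type (blue) or Saa3-/- (orange), and nearly all ILC2-like cells have an Nfkb1 molecule (28 of 29 and 11 of 12).

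Macrophage-like and T-like cells differed gene by gene. Of 6584 genes, 12.5% were at least 2-fold higher in macrophage-like cells in both pools and 17.5% at least 2-fold lower. Of the 9 genes of the set, 3 were higher (Nfkbiz, Bcl3 and Tnf) and 1 was lower (Tnfaip3). The log2 ratios were 2.89 (2.26 to 3.67) and 3.20 (2.54 to 4.02) for Tnf, and -1.70 (-1.85 to -1.56) and -1.84 (-2.02 to -1.65) for Tnfaip3. The ligand and the enzyme that ends its signal were thus highest in different gates of the 2. Tnf in T-like cells was near the background level given above. Nfkb1 was lower in macrophage-like cells, at -0.41 and -0.52, short of 2-fold.

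In the other pairs of gates fewer genes of the set passed. B-like against T-like cells gave Rel as higher (log2 ratios 1.81 and 2.66) and Tnfaip3 as lower (-2.21 and -2.35) among 7 tested, against 4.27% and 8.76% of all genes. Fibroblast-like against smooth-muscle-like cells gave Nfkbiz as higher (2.40 and 1.02) among 4 tested, against 9.77%, and none as lower (7.32%). That call was at its limit in the pool labelled Saa3-/-, where the ratio went down to 0.92 under a stricter cell filter. Conventional dendritic-like against macrophage-like cells gave Nfkbiz (-1.36 and -1.06) and Tnf (-2.41 and -2.96) as lower among 9 tested, against 7.38%, and none as higher (3.06%). These pairs of gates were chosen after levels had been seen.

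Further gates held under 20 cells in at least 1 pool and carry wide intervals. Neutrophil-like cells (8 and 17 cells) had 2270.1 CPM (1690.2 to 2985) and 3029 CPM (2627 to 3476) of Nfkbia, and 1335 and 1537 CPM of Nfkbiz. That Nfkbiz level was above the one of ILC2-like cells (1160.1 and 1272 CPM). For both genes the intervals of these 2 gates overlapped in both pools. The Tnf level of neutrophil-like cells was 489.6 CPM (244 to 876) and 358 CPM (229 to 533), above that of macrophage-like cells in both pools. Under the wild-type label it came from 11 molecules in 3 of 8 cells, with 6 in 1 cell. Under the other label it came from 24 molecules in 9 of 17 cells. In the pool labelled wild-type neutrophil-like cells had 0 Nfkb1 molecules of 22466, which allows a level of up to 134 CPM at 3 molecules (the exact interval ends at 164 CPM). In the other pool they had 478 CPM (327 to 674).

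Migratory dendritic-like cells (9 and 5 cells), dendritic cells on the way to lymph nodes, had more Rel than B-like cells, at 1406 CPM (1146 to 1709) and 1724 CPM (1324 to 2205). Relb was also high there, at 167 CPM (86.3 to 292) and 410.4 CPM (229.7 to 677). NK-like cells (13 and 10 cells) had 1091 and 773 CPM of Tnfaip3, with intervals that overlapped those of T-like cells. Thymocyte-like cells (9 and 24 cells), of which 23 also carried markers of a second type, had 366 and 315 CPM of that gene. Endothelial-like cells (8 and 7 cells) had 1177 and 1006 CPM of Nfkbia, and 0 and 5 molecules of Tnf.

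**Figure D3:**
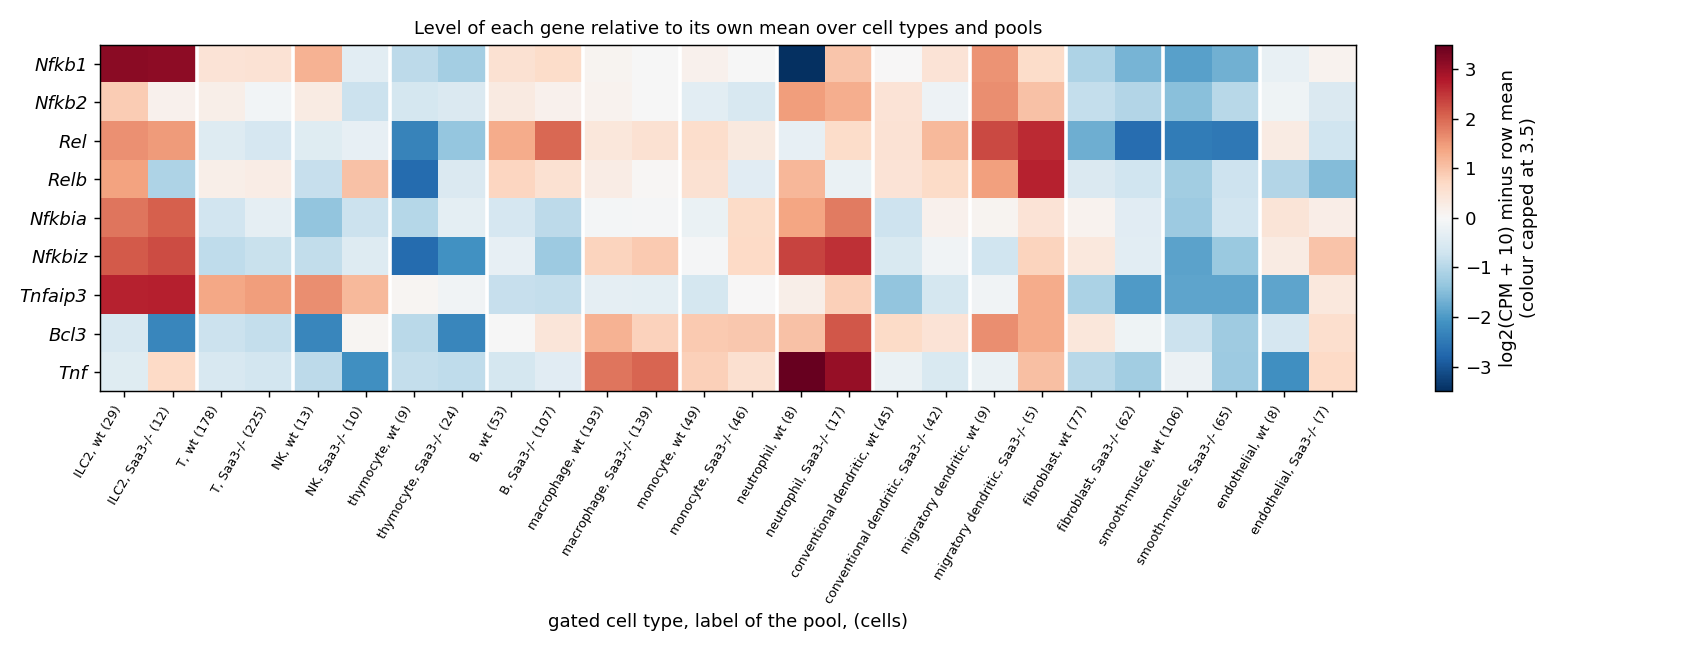
Level of each gene (rows) in 13 gated cell types of each pool (columns, with the number of cells), as log2(CPM + 10) minus the mean of the row, so that colours compare cell types within a gene and not genes with each other. Nfkb1 and Tnfaip3 are reddest in ILC2-like cells, and Tnf in neutrophil-like cells (489.6 and 358 CPM, from 11 and 24 molecules).

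The pools were then compared within gates, as a log2 ratio with the Saa3-/- label over the wild-type label. Genes with at least 50 molecules over both pools were used, and a gene was called where the ratio was 2-fold or more. In macrophage-like cells 0 of 9 genes were called, against 2.11% of 7479 genes (0.923% higher and 1.19% lower). Their log2 ratios lay between -0.44 and 0.18 with a median of -0.02, and the median of all genes was 0.04. The central 90% of all genes, from -0.57 to 0.63, contained every one of them. Bcl3 had the lowest, -0.44 (-0.81 to -0.08), from 102 and 75.5 CPM, and Tnf the highest, 0.18 (-0.08 to 0.43). Nfkbia was nearly level at 0.02 (-0.10 to 0.13). The gate was not alike in all genes, since Gpnmb, a gene of lipid-loaded macrophages looked at after its values were seen, stood at 222 and 1025 CPM, and its part was not tested. The untyped cells, which were led by Gpnmb, are not part of this gate.

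In T-like cells 0 of 7 genes were called, against 2.55% of 6279 genes (1.31% higher and 1.24% lower). Nfkb1 stood at 0.00 (-0.22 to 0.23) and Tnfaip3 at 0.12 (-0.02 to 0.25). The highest was Nfkbia, at 0.38 (0.21 to 0.55), from 532 and 693 CPM, and 0.18 where each cell weighed the same. Bcl3 and Tnf had under 50 molecules.

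In monocyte-like cells 1 of 8 genes was called, against 6.10% of 3082 genes (3.70% higher and 2.40% lower). Relb was lower, at -1.06 (-2.10 to -0.17), from 37 and 14 molecules, and went from -2.50 with cells typed by cluster to -0.86 at 3 times the expected marker molecules. Nfkbia had a log2 ratio of 0.93 (0.72 to 1.13), from 728 CPM (651 to 812) to 1384 CPM (1265 to 1512), just short of 2-fold, with Nfkbiz at 0.77 (0.40 to 1.14) and Tnfaip3 at 0.63 (0.24 to 1.02). None of these 3 passed 2-fold, but each did under some alternative. Over 10 alternatives the ratio of Nfkbiz ran from 0.78 to 2.09, with 3 outside its counting interval. That of Nfkbia ran from 0.72 to 1.19 and that of Tnfaip3 from 0.35 to 1.07. The molecules of these 3 genes were concentrated in both pools. Under the Saa3-/- label the top 5 of 46 cells held 206 of 496 Nfkbia, 84 of 150 Nfkbiz and 68 of 125 Tnfaip3 molecules. Under the wild-type label the top 5 of 49 cells held 119 of 323, 66 of 109 and 51 of 100. Nfkb1 had -0.16 and Rel -0.27, with intervals across 0, and the difference between genes was not tested. Without the cells typed mainly on Fn1 and Vcan these 3 ratios came to 1.04, 1.26 and 1.07. Immediate early and dissociation genes moved the same way, from a summed 5236 to 7924 CPM, with 3 of 11 tested called higher and none lower. The 6 fibroblast markers, all detected, came to 1169 and 3425 CPM in this gate. The part of either in the ratios was not tested.

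In conventional dendritic-like cells 0 of 8 genes were called, against 4.29% of 3283 genes (1.16% higher and 3.14% lower). Nfkbia stood at 512 CPM (453 to 576) and 946 CPM (851 to 1048), a log2 ratio of 0.88 (0.65 to 1.12), and of 1.14 where each cell weighed the same. Tnfaip3 (0.82), Rel (0.65), Nfkb1 (0.48) and Nfkbiz (0.45) had intervals above 0, and Nfkb2 (-0.70) one below. In this gate 3 of 45 cells under the wild-type label and 5 of 42 under the other held at least 50% of the Nfkbia molecules. With cells typed by cluster in place of gates, the ratio of Nfkbia was -0.39, the opposite direction, and that of Tnfaip3 0.16. Immediate early and dissociation genes came to 3598 and 4476 CPM, and the 8 macrophage markers, all detected, to 2223 and 1118 CPM. Their part in the ratios was not tested.

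In B-like cells 1 of 7 genes was called, against 7.29% of 2799 genes (3.00% higher and 4.29% lower). Nfkbiz was lower, at -1.05 (-1.66 to -0.47), from 206 to 99.0 CPM. The value rested on few cells, since 3 of 53 cells under the wild-type label accounted for at least 50% of its molecules and the ratio was -0.22 without the 5 highest cells of each pool and -0.74 where each cell weighed the same. The 8 macrophage markers, all detected, came to 3242 CPM in B-like cells of the pool labelled wild-type and to 849.8 CPM in the other, and their part was not tested. Rel was higher by 0.70 (0.47 to 0.95), and by 0.31 where each cell weighed the same. The share of B-like cells with a Rel molecule at equal depth, given above, differed by less than its counting interval.

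In fibroblast-like cells 1 of 8 genes was called, against 3.96% of 5045 genes (1.98% higher and 1.98% lower), and all 8 ratios were below 0. Rel was lower, at -1.11 (-1.88 to -0.42), from 76.0 CPM (58.8 to 96.7) to 34.8 CPM (22.0 to 52.2), and stood at -0.34 with cells typed by cluster and at -0.91 where each cell weighed the same. Tnfaip3 (-0.95), Nfkbiz (-0.76), Nfkb1 (-0.62) and Nfkbia (-0.51) had intervals below 0. The median of the 8 was -0.65, and that of all genes -0.03. The 8 macrophage markers, all detected, moved the same way in this gate, from 1010.4 to 575 CPM, while immediate early and dissociation genes stood at 7787 and 7653 CPM. The part of the macrophage markers was not tested.

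In smooth-muscle-like cells 0 of 5 genes were called, against 1.99% of 4474 genes (0.559% higher and 1.43% lower). Nfkbia stood at 348 CPM (310.4 to 388) and 535 CPM (472 to 605), a log2 ratio of 0.62 (0.38 to 0.86), and Nfkbiz had 0.63 (0.03 to 1.22). The Nfkbiz ratio ran from 0.11 to 0.88 over 9 alternatives. Its top 5 cells held 25 of 56 molecules under the wild-type label and 29 of 46 under the other. Rel (-0.07), Tnfaip3 (0.02) and Nfkb1 (0.26) had intervals across 0.

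**Figure D4:**
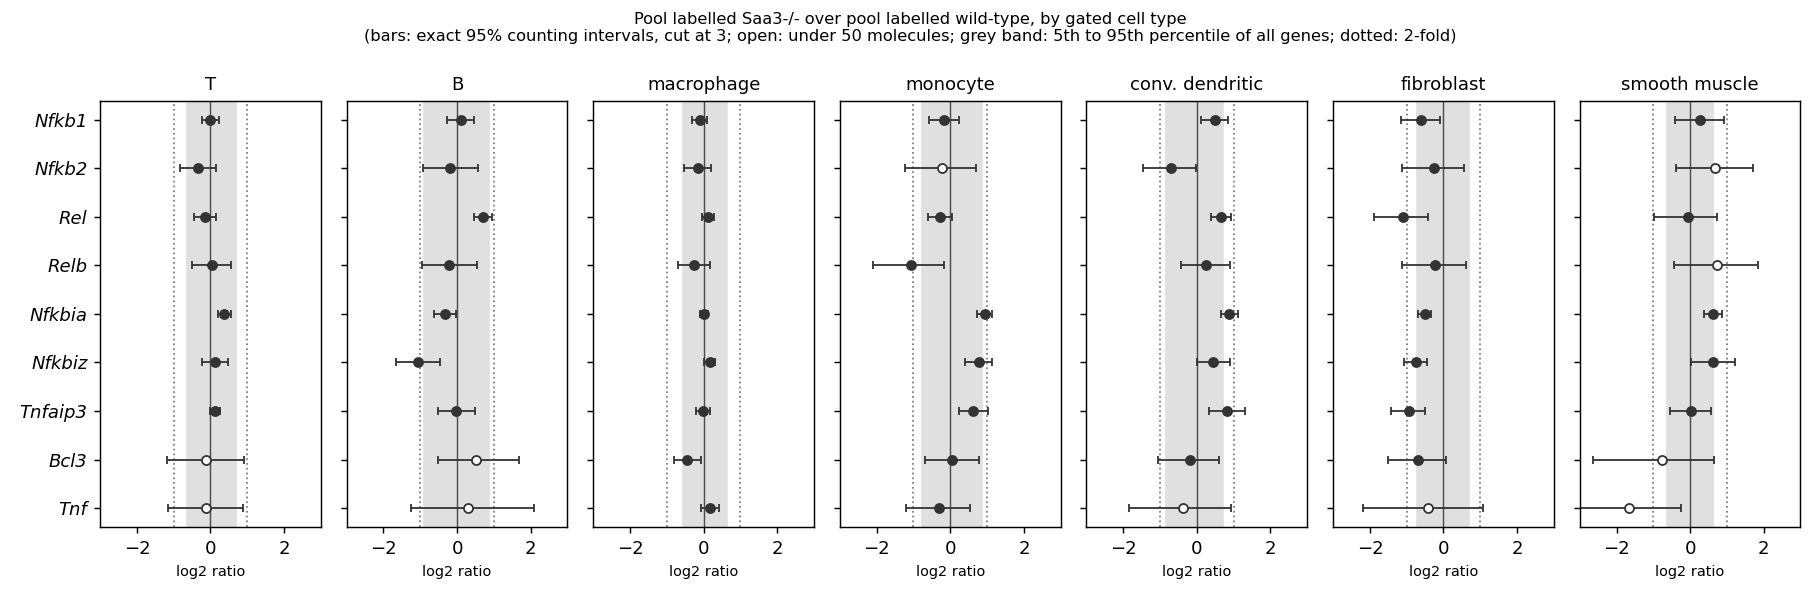
Log2 ratio, Saa3-/- label over wild-type label (horizontal axis), for the 9 genes in 7 gates, with exact 95% counting intervals, open symbols under 50 molecules, dotted lines at 2-fold and a grey band from the 5th to the 95th percentile of all genes of the gate. The points of macrophage-like cells lie within the band (-0.57 to 0.63), and those of fibroblast-like cells lie below 0.

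Further genes were described in 6 lists with 60 genes in all, 5 lists of the pathway and 1 of immediate early and dissociation genes. In macrophage-like cells 1 of them was called, against the same 2.11%. It was Irak3, an inhibitor of Toll-like receptor signalling, at 82.9 CPM in the pool labelled wild-type and 36.5 CPM in the pool labelled Saa3-/- (log2 ratio -1.17). None of 11 receptors and adaptors (median 0.00), 7 kinases (0.14), 4 other subunits and IkB proteins (-0.18), 12 known target genes (0.38) or 12 immediate early and dissociation genes (0.08) passed, with a median of 0.04 for all genes. Among the targets were the chemokine genes Cxcl2 (885 and 1199 CPM) and Ccl4 (588 and 896 CPM) and the cytokine gene Il1b (176 and 259 CPM), short of 2-fold and named after their values were seen, while Icam1 (-0.13), Sod2 (-0.17) and Marcksl1 (-0.18) had log2 ratios below 0. In T-like cells Ptgs2, which encodes a prostaglandin-forming enzyme, was the only list gene called, at 124 and 28.5 CPM (-2.11). It was 1 of 10 target genes tested. None of the 9, 7, 4, 7 and 12 genes tested in the other lists was called, against 2.55% of all genes. The 6 thymocyte markers, all detected, came to 537 and 848 CPM in T-like cells, and their part was not tested. The subunit gene Rela, not called and also named after its values were seen, had 103 and 84.9 CPM in macrophage-like and 78.1 and 81.4 CPM in T-like cells.

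In monocyte-like cells the known targets split, with 1 of 11 called higher and 3 lower, against 3.70% and 2.40% of all genes. Icam1, an adhesion molecule, stood at 135 and 399 CPM, while Cxcl2 stood at 1422 and 346 CPM, Il1b at 268 and 114 CPM and Ccl3 at 221 and 100.5 CPM. Icam1 stood at 268 and 172 CPM in fibroblast-like cells, whose markers came to 1169 and 3425 CPM in the monocyte-like gate, and their part was not tested. These genes fall outside the rule for named genes and were chosen after their values were seen. In fibroblast-like cells Irak3 and Zc3h12a, both negative regulators, were the 2 of 6 tested in their list that were called, both lower, against 1.98% of all genes. Ccl4 of the target list was called lower there too, as 1 of 9 tested. Zc3h12a and Ccl4 were named after their values were seen.

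Macrophage-like cells with a Tnf molecule were set beside those without one, each cell thinned to 2000 molecules, a comparison chosen after values were seen. In the pool labelled wild-type 32 cells had one and 158 did not. In the pool labelled Saa3-/- the numbers were 33 and 104. Nfkbia was at 1406 CPM (1131 to 1729) with and 737 CPM (646 to 838) without Tnf in the former pool, and at 1258 CPM (1002 to 1559) and 673 CPM (566 to 794) in the latter. Tnfaip3 had 516 against 225 CPM and 485 CPM (332 to 684) against an interval of 187 to 328 CPM, and Nfkbiz 781 against 348 CPM and 742 against 394 CPM. In this draw of the thinning the intervals of these 3 feedback genes did not overlap in either pool. Of 899 genes with at least 50 molecules in each pool at this depth, 1.22% had intervals apart and higher with Tnf in both pools, and 0.445% apart and lower. Among the 5 genes of the set that reached 50 molecules, 3 were in the former group and 0 in the latter. In 20 further draws of the thinning the log2 ratios of Nfkbia, Nfkbiz and Tnfaip3 stayed above 0, between 0.35 and 1.87. Whether their intervals stayed apart in those draws is not given here. Rel (406 against 377 CPM, and 333 against 418 CPM), Nfkb1, Nfkb2, Relb and Bcl3 had overlapping intervals in both pools, and draws differed for some of them. Over the 20 draws the log2 ratio of Rel had a median of 0.54 (0.09 to 0.79) under the wild-type label and 0.16 (-0.72 to 0.62) under the other. That of Bcl3 had medians of 0.44 (-0.93 to 1.28) and 0.25 (-2.99 to 1.61), against 1.38 and -0.67 in the printed draw. Immediate early and dissociation genes were also higher with Tnf, at 8406 against 4668 CPM and 6848 against 5178 CPM, and their part was not tested.

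**Figure D5:**
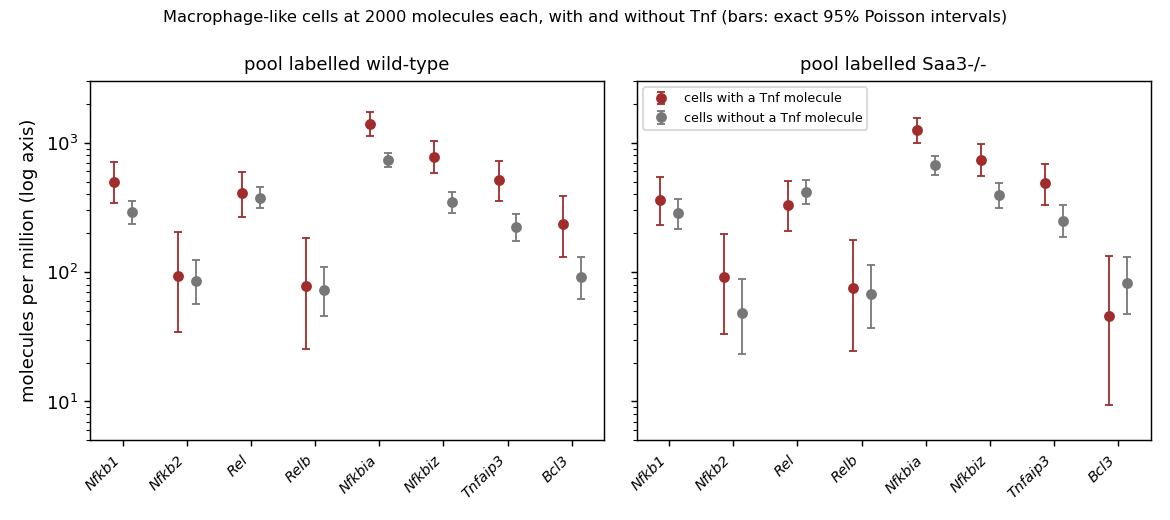
Level of 8 genes (molecules per 1000000, log axis) in macrophage-like cells with (red) and without (grey) a Tnf molecule at 2000 molecules per cell, in the pool labelled wild-type (left) and Saa3-/- (right), with exact 95% Poisson intervals. Nfkbia, Nfkbiz and Tnfaip3 are higher with Tnf in both pools, and the intervals of Rel overlap.

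Across 16 columns of gate and pool with at least 20 cells, the subunits varied together. Pearson's r of log2(CPM + 10) lay between 0.83 and 0.92 for the 6 pairs among Nfkb1, Nfkb2, Rel and Relb. It was 0.84 for Nfkbia with Nfkbiz and 0.65 for Bcl3 with Tnf, and -0.15 for Tnfaip3 with Bcl3. Pools of 1 gate share their cell type and all columns share 1 capture run, so these values are descriptions. Of 6573 genes compared, those most like Nfkb1 were Spty2d1 (0.96), Dennd4a (0.93) and Samsn1 (0.92), and those most like Rel were Snx20 (0.96), Birc3 (0.94) and Inpp5d (0.94). Tnfaip3 was nearest to Cwc25 (0.95), Gramd1a (0.93) and Tnip1 (0.92), Tnf to Lilra5 (0.94), Gdf3 (0.92) and Mmp12 (0.92), and Bcl3 to Litaf (0.97), Ifi207 (0.96) and B4galt5 (0.96). Nfkb2 and Relb shared Dennd4a (0.92 each) and Raet1e (0.91 and 0.90), with Il4ra (0.91) for Nfkb2 and Apaf1 (0.89) for Relb. Nfkbia was nearest to Maff (0.86), Klf10 (0.85) and Pde7b (0.84), and Nfkbiz to Pde7b (0.93), Cdkn1a (0.93) and Alox5 (0.86).

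On GRCm38 (GENCODE release 21) the genes lie apart except for Relb (chromosome 7, 19606217 to 19629438, minus strand) and Bcl3 (chromosome 7, 19808462 to 19822770, minus strand). Nfkb1 is on chromosome 3 (135584655 to 135691547), Nfkb2 on 19 (46304320 to 46312385), Rel on 11 (23736847 to 23770970) and Nfkbia on 12 (55489410 to 55492647). Nfkbiz is on chromosome 16 (55811375 to 55838899), Tnfaip3 on 10 (19000910 to 19015657) and Tnf on 17 (35199381 to 35202007). Nfkb1, Nfkb2 and Bcl3 overlap other annotated genes. How molecules were assigned by strand is not given in the sources used here, but the overlapping Psd had 31 molecules and Gm16174, opposite Bcl3, had 16 in all cells.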

How the data were processed

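The deposited tables hold counts of molecules per cell, 1 table per sample tag. Per the file headers, the authors made them with the BD Rhapsody WTA Analysis Pipeline 1.11.1 on GRCm38 with GENCODE release 19, counting intronic reads and without normalization. The deposited tag calls of 2401 cells, another kind of value, matched the tables for all 1743 cells. The submitters' processing notes name R 4.3.1 and Seurat 4.3.0. Which tag belongs to which genotype comes from the table names.

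Cells with at most 25% mitochondrial molecules were kept (56 and 31 removed). Each cell took the type whose markers exceeded the all-cell mean at its depth by the largest Poisson likelihood ratio, with at least 2 markers, 3 molecules and 1.5 times the expected molecules. Doublets were not called beyond the 11 tag multiplets, which are in neither table. Molecules were summed per gate and pool and scaled to CPM. Log2 ratios used a pseudocount of 0.5 molecule. Calculations used Python 3.11.15, numpy, scipy 1.17.1 and scanpy 1.11.5, and the ratio and gating functions were tested on simulated data. No per-gene test was made, since each genotype is 1 pool.

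The genes, lists and markers were chosen with earlier results of these data known. The gate limits were set after a first gating (3 times the expected molecules, 384 untyped cells against 100) had shown levels of these genes. Named were the 9 genes, list genes called in macrophage-like or T-like cells, and for each gene the 3 most alike among genes with at least 300 molecules that are not gating markers. Other named genes lie outside this rule, and most are said to do so where they appear or serve as cell markers. Alternatives were other cell filters, typing by cluster (Leiden, resolution 2, the 9 genes left out, each cluster named by the gate of at least 50% of its cells), equal weight per cell, other scaling, pseudocount, molecule minimum, thinning and leaving out top cells.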

Additional observations from a re-analysis of the deposited data

Results flagged for a closer look

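Several genes had log2 ratios between pools (Saa3-/- label over wild-type label) whose counting intervals lay above 0 in one gate and below 0 in another. The difference between gates was not tested, and with 1 pool per genotype the intervals cover counting error only. Nfkbia was above 0 in monocyte-like (0.93), conventional dendritic-like (0.88), smooth-muscle-like (0.62) and T-like cells (0.38), and below 0 in fibroblast-like (-0.51) and B-like cells (-0.33). The conventional dendritic-like value turned to -0.39 with cells typed by cluster. Nfkbiz was above 0 in monocyte-like (0.77), smooth-muscle-like (0.63), conventional dendritic-like (0.45) and macrophage-like cells (0.16), and below 0 in B-like (-1.05) and fibroblast-like cells (-0.76). Over the alternatives the values above 0 ran from 0.78 to 2.09, 0.11 to 0.88, 0.17 to 0.82 and 0.12 to 0.33, in that order. The B-like value was -0.22 without the 5 highest cells of each pool. Tnfaip3 was above 0 in conventional dendritic-like (0.82) and monocyte-like cells (0.63), and below 0 in fibroblast-like cells (-0.95). Rel was above 0 in B-like (0.70) and conventional dendritic-like cells (0.65), and below 0 in fibroblast-like cells (-1.11, and -0.34 with cells typed by cluster). Nfkb1 was above 0 in conventional dendritic-like cells (0.48) and below 0 in fibroblast-like cells (-0.62).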

How the results depend on the processing

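Of 637 values recomputed under alternatives, 594 stayed inside the counting interval of the reported value or within 1.5 times of a reported count, 42 moved outside and 1 reversed. The counts of 0 genes called in macrophage-like and in T-like cells were 0 under all 12 alternatives of each. The gate with the highest level, among the 7 larger gates and ILC2-like cells, was the same in both pools for 5 of 9 genes, and for 8 with cells typed by cluster. The share of macrophage-like cells with Tnf was 46.1% without thinning. The reversed value was the log2 ratio of Nfkbia between pools in conventional dendritic-like cells, -0.39 with cells typed by cluster. The cause was not tested. The gate settings of at least 3 markers or 3 times the expected molecules and the further draws were chosen after seeing the data. So were the limits to cells not typed on Fn1 and Vcan and to ILC2-like cells with at most 1 T cell receptor or CD3 molecule. Over all alternatives the log2 ratio of Nfkb1 between ILC2-like and T-like cells ranged from 2.59 to 3.78 in the pool labelled wild-type and from 2.52 to 2.94 in the other, and that of Tnf between macrophage-like and T-like cells from 2.71 to 3.03 and from 2.96 to 3.24. No paired analysis was possible because each genotype is 1 pool. Genes with few molecules, such as Relb, Nfkb2, Bcl3 and Tnf outside myeloid cells, could show only large differences at this depth.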

Other observations

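ILC2-like cells also carried more of several list genes than T-like cells, chosen after their values were seen. Nfkbid, another nuclear IkB protein, stood at 661 and 938 CPM in the pools labelled wild-type and Saa3-/-, and at 189 and 175 CPM in T-like cells. Zc3h12a, an RNase that degrades inflammatory transcripts, had 346 and 459 CPM against 71.7 and 97.6 CPM. The chemokine gene Cxcl2 had 722 and 813 CPM against 46.4 and 56.9 CPM. Rela, by contrast, had 108 and 83.4 CPM against 78.1 and 81.4 CPM.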
